A study of Mus musculus with 5 samples.

Results

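A set of 10 genes of tumour necrosis factor (TNF) receptor signalling was followed in regulatory T cells (Tregs): the receptor genes Tnfrsf1a, Tnfrsf1b, Tnfrsf4, Tnfrsf9, Tnfrsf18, Tnfrsf25 and Cd27, the adaptor genes Traf1 and Traf2, and Birc3, the gene of a ubiquitin ligase that binds those adaptors. They were chosen by symbol and matched by Ensembl ID, 10 of the 49927 gene IDs in the deposited tables, and each symbol had 1 ID. Of the 10, 9 had a value above 0 in all 5 libraries, as did 6989 of all IDs, and Tnfrsf1a was listed at 0 in 1 library.

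Messenger RNA was sequenced from Tregs sorted out of lymph nodes (LN) or adipose tissue of C57BL/6 mice, with 1 library in each of 5 groups and no replicate. All mice carried Foxp3Cre, in which the Treg gene Foxp3 drives the Cre recombinase. The groups were LN Tregs at 4 months, adipose Tregs at 4 months, adipose Tregs of obese mice at 4 months (HFD in the title), adipose Tregs at 10 months, and adipose Tregs at 10 months from Med23fl/fl;Foxp3Cre mice. In the last group Cre is driven by Foxp3, so its expected target cells are Tregs. The 4-month adipose group is called lean here only because no label names obesity for it. Pooling of mice and the sort gate were not given in the sources used here.

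Values are scaled read counts as deposited. For levels across all 5 libraries each column was rescaled to a sum of 1000000 (CPM). With 1 library per group there is no spread between animals and no test. Parentheses after a fold hold a 95% counting interval, which covers the error of counting reads and nothing else. The listed reads numbered from 4595046 to 9694474 per library. Med23 had 15.5 CPM in the library labelled Med23 KO and 6.32 CPM in the 10-month Foxp3Cre library, against the direction of the label. Elsewhere it had 6.40 CPM in LN, 46.8 in lean and 33.3 in obese adipose. A value for the whole gene does not show whether part of it was deleted. Every direction given for the library labelled Med23 KO therefore rests on its label. All 13 Treg and T cell markers were above 0 in all 5 libraries, but their levels were uneven. Foxp3 had 52.5 CPM in LN and 155 to 216 CPM in adipose. Cd3d, Cd3e and Cd3g summed to 4639.7 CPM in LN and 1496 to 2058 CPM in adipose. Cd28 and Icos had 62.2 and 318 CPM in lean adipose and 50.4 and 345 CPM in obese adipose. In the other libraries they had 689 to 1125 CPM and 1064 to 1249 CPM. In lean adipose against LN, 2 of the 13 were at least 2-fold higher and 6 lower, beside 37.6% and 32.1% of all measured genes. Xist, an RNA of the inactive X chromosome, had 228 to 602 CPM in LN and both 10-month libraries and 0 and 3.60 CPM in lean and obese adipose, where the Y-linked gene Ddx3y had 560 and 562 CPM against 0 in the other 3. Gapdh, a glycolytic gene, was split in the same way, with 548 to 979 CPM against 1.05 and 10.7 CPM in lean and obese adipose. Their part in the comparisons of those libraries with LN or with 10-month Tregs was not tested. A set of 15 macrophage and dendritic cell markers summed to 12.8 CPM in LN, then 899 in lean, 4994 in obese and 658 in 10-month Foxp3Cre adipose, with 108 in the library labelled Med23 KO. Fibroblast and mesothelial markers summed to 1038 CPM in lean adipose and to 0 to 48.9 CPM elsewhere, B cell markers to 101 CPM in LN and 7.96 to 36.8 CPM in adipose, CD8 T and NK cell markers to 296 to 487 CPM, endothelial markers to 27.3 to 89.9 CPM and adipocyte markers to 0 to 28.2 CPM. Single genes carried much of some sums. Pecam1 was the only endothelial marker above 0 in LN, lean and 10-month Foxp3Cre adipose. Of the CD8 T and NK cell markers, Nkg7 had 92.6 to 341 CPM and Gzmb 17.4 to 176 CPM, while Prf1 and Ncr1 were at 0 in all 5 libraries. In bulk RNA, fewer cells of a type and less RNA per cell cannot be told apart.

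TNF family receptors are surface proteins without enzymatic activity of their own. When trimeric ligands cluster them, they recruit TRAF adaptors, either directly or, for receptors with a death domain, through TRADD, and TRAF2 brings the ubiquitin ligases cIAP1 (Birc2) and cIAP2 (Birc3). The kinases assembled on the resulting ubiquitin chains activate NF-kB. OX40, GITR, 4-1BB, DR3 and TNFR2 are costimulatory receptors of this family on Tregs. The genes of TRAF1, cIAP2 and 4-1BB are themselves known NF-kB targets.

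The receptors for TNF itself were highest in obese adipose or in the library labelled Med23 KO. Tnfrsf1a encodes TNFR1, a death domain receptor found on most cell types. Its level was 8.46 CPM in LN, then 10.9 in lean, 26.9 in obese and 16.4 in 10-month Foxp3Cre adipose, and it was listed at 0 in the library labelled Med23 KO. The intervals of LN and lean adipose overlapped (6.73 to 10.5 and 8.79 to 13.3 CPM), and the other neighbours in the order did not. Tnfrsf1b encodes TNFR2, the TNF receptor of activated T cells and Tregs. It had 70.2 CPM in LN, then 99.3 in lean, 257 in obese and 125 in 10-month Foxp3Cre adipose, with 429 in the library labelled Med23 KO, and no counting intervals overlapped. Its highest level was 6.10 times its lowest. Both receptors were at least 2-fold higher in obese than in lean adipose, as were the summed macrophage and dendritic cell markers given above, of which Marco alone was at 0 in the obese library and Itgax, Fcgr1, Mertk and Marco were at 0 in the lean one. The part of these markers in the receptor values was not tested. In the library labelled Med23 KO, where Tnfrsf1b was highest, 9 of the 15 markers were at 0 and 6 above 0, with Lyz2 the highest at 53.3 CPM. In LN, where Tnfrsf1b was lowest, 13 of the 15 were at 0.

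Of the costimulatory receptors, Tnfrsf4, Tnfrsf18, Tnfrsf25 and Cd27 were highest in 10-month Foxp3Cre adipose. Tnfrsf9 differed little among the adipose libraries and was low in LN. Tnfrsf4 encodes OX40 and lies next to Tnfrsf18, the gene of GITR, on chromosome 4. Tnfrsf4 had 1738 CPM in LN, then 3243 in lean, 3449 in obese and 4168 in 10-month Foxp3Cre adipose, with 1299 in the library labelled Med23 KO, and no intervals overlapped. Tnfrsf18 had 325 CPM in LN, then 513 in lean, 479.8 in obese and 691 in 10-month Foxp3Cre adipose, with 406 in the library labelled Med23 KO, again without overlap. Thus 10-month Foxp3Cre adipose was the highest library for both genes, while the lowest was the library labelled Med23 KO for Tnfrsf4 and LN for Tnfrsf18. Tnfrsf9 encodes 4-1BB, a receptor induced by T cell activation. It had 214 CPM in LN against 765 in lean, 745 in obese and 745 in 10-month Foxp3Cre adipose and 706 in the library labelled Med23 KO. LN stood alone as the low library, and each adjacent pair of the 4 adipose libraries had overlapping intervals.

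Tnfrsf25 and Cd27, also highest in 10-month Foxp3Cre adipose, differed from Tnfrsf4 and Tnfrsf18 in the order of the other libraries. Tnfrsf25 encodes DR3, a death domain receptor that costimulates Tregs. Its level was 55.8 CPM in LN, then 75.1 in lean, 34.4 in obese and 111 in 10-month Foxp3Cre adipose, with 17.0 in the library labelled Med23 KO. No intervals overlapped, and the highest level was 6.52 times the lowest. Cd27 encodes a costimulatory receptor of naive and memory lymphocytes. It had 252 CPM in LN, then 145 in lean, 253 in obese and 337 in 10-month Foxp3Cre adipose, with 259 in the library labelled Med23 KO. Lean adipose was the lowest library and 10-month Foxp3Cre adipose the highest, while LN, obese adipose and the library labelled Med23 KO had overlapping intervals from neighbour to neighbour.

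The adaptors divided into Traf1 and Birc3, which were lowest in LN, and Traf2, which was lowest in lean adipose. TRAF1 forms mixed trimers with TRAF2 and holds cIAP2 in receptor complexes. Traf1 had 114 CPM in LN, then 676 in lean, 408 in obese and 737 in 10-month Foxp3Cre adipose, with 486 in the library labelled Med23 KO. Birc3 had 125 CPM in LN, then 795 in lean, 594 in obese and 432 in 10-month Foxp3Cre adipose, with 239.8 in the library labelled Med23 KO. Neither gene had overlapping intervals, and LN was the lowest library for both, but the highest was 10-month Foxp3Cre adipose for Traf1 and lean adipose for Birc3. TRAF2 is an adaptor that many receptors of the family share. Traf2 had 26.0 CPM in LN, then 11.5 in lean, 21.2 in obese and 31.0 in 10-month Foxp3Cre adipose, with 83.8 in the library labelled Med23 KO. The interval of LN overlapped those of obese and of 10-month Foxp3Cre adipose, and the highest level was 7.30 times the lowest.

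**Figure D1:**
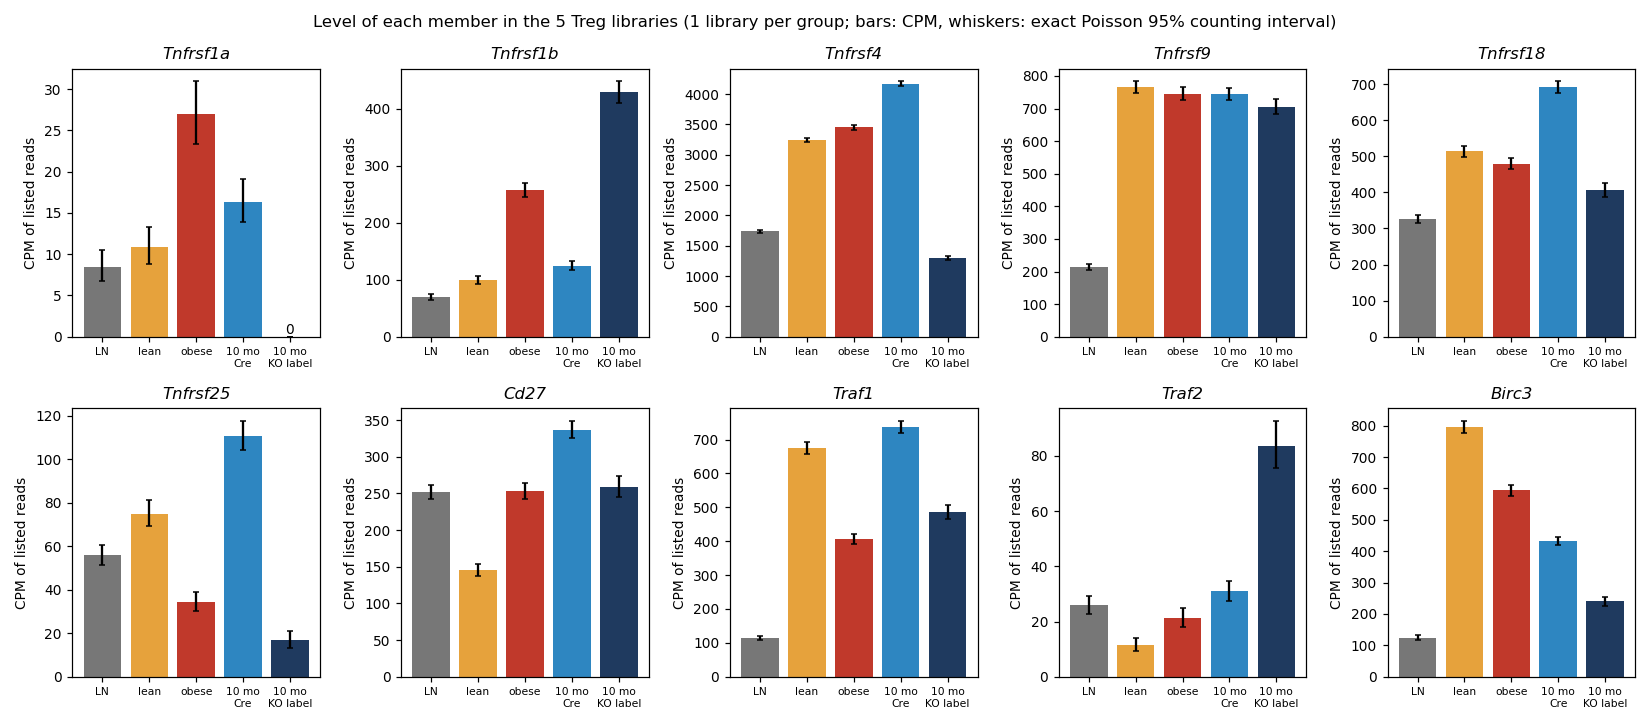
Level of each of the 10 genes in CPM of listed reads (vertical axis from 0, scaled separately for each gene) in the 5 libraries, with exact Poisson 95% counting intervals as whiskers and no whisker at 0. Tnfrsf1b, Tnfrsf9, Tnfrsf18, Traf1 and Birc3 were lowest in LN, and Tnfrsf1a was listed at 0 in the library labelled Med23 KO.

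Per kilobase of merged exon, Tnfrsf4 was the highest of the 10 genes and Tnfrsf18 came next. Lengths are those of all GENCODE M21 exons of a gene merged, and the authors' gene models were not given. The order of the genes on this scale depends on that choice of length. Tnfrsf4 had 1273 CPM per kilobase in LN, then 2376 in lean, 2527 in obese and 3054 in 10-month Foxp3Cre adipose, with 951 in the library labelled Med23 KO. Tnfrsf18 had 213 to 453 CPM per kilobase over the 5 libraries, and Tnfrsf9 followed it in each adipose library at 259 to 281. Traf2 was lowest in lean, obese and 10-month Foxp3Cre adipose, where it had 2.25 to 6.07 CPM per kilobase, and Tnfrsf1a was lowest in the other 2 libraries. Summed over the 10 genes, the level in CPM was 2928 in LN, then 6334 in lean, 6268 in obese and 7391 in 10-month Foxp3Cre adipose, with 3926 in the library labelled Med23 KO. Tnfrsf4 alone made up 51.2% to 59.4% of that sum in the other libraries and 33.1% in the library labelled Med23 KO.

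Of the 10 genes, 5 lie on chromosome 4 in assembly GRCm38.p6 (Tnfrsf1b, Tnfrsf4, Tnfrsf9, Tnfrsf18 and Tnfrsf25), among them Tnfrsf4 and Tnfrsf18 as neighbours, and Tnfrsf1b beside Tnfrsf8, the gene of CD30. Tnfrsf1a and Cd27 lie on chromosome 6, Traf1 and Traf2 on chromosome 2, and Birc3 on chromosome 9 beside Birc2. In that assembly Tnfrsf4 overlaps Sdf4, Tnfrsf18 overlaps Gm16008, Cd27 overlaps E130112N10Rik and Mir8113, Traf1 overlaps Gm52552 and Traf2 overlaps Gm13433. The strand setting of the counting was not given in the sources used here. The overlaps are of whole gene spans, introns included. Whether reads of such pairs could be told apart is not known, and those 5 levels are uncertain to that extent.

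Promoters are shown for Tnfrsf9, Traf1 and Birc3 because these were the members at least 2-fold above LN in lean, obese and 10-month Foxp3Cre adipose alike. The sequences run from 250 bases before to 50 bases after a start site, 5′ to 3′ on the gene's strand, from RefSeq in build GRCm38.p6, and all 10 genes matched that table, with 12 start sites. Both strands were searched for the NF-kB consensus, whose matches can overlap. Capitals mark the stretch covered by matches.
Tnfrsf9, first start site, chr4:150919905-150920204, plus strand: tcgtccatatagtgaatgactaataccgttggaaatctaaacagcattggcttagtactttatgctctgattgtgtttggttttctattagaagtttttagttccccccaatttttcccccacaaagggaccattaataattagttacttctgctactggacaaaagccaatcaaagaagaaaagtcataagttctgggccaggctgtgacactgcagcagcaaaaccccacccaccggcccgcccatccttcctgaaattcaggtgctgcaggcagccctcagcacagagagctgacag
Tnfrsf9, second start site, chr4:150927749-150928048, plus strand: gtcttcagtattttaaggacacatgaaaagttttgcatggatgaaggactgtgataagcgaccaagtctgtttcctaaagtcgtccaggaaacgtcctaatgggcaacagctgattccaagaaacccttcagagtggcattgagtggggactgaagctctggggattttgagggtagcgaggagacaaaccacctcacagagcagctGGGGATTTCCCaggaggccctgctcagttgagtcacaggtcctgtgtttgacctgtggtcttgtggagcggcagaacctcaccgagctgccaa
Traf1, chr2:34961723-34962022, minus strand: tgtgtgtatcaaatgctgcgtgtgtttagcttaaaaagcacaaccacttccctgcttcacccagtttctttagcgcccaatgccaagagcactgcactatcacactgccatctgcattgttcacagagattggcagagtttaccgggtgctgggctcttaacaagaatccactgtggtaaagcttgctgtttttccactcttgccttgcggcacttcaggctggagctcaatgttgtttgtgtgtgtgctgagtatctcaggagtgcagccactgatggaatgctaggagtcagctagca
Birc3, chr9:7873121-7873420, minus strand: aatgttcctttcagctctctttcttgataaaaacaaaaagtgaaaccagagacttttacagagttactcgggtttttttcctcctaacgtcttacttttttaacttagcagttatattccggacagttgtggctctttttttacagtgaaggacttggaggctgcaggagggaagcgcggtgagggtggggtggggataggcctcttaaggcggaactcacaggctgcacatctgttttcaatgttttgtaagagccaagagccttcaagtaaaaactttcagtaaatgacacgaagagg
The capitals at the second Tnfrsf9 start site begin at position -43 from the start. They cover 3 overlapping matches. The consensus was present in 1 of the 12 promoters of the 10 genes, against 4.51% of 32851 promoters of the same length in the table. A match describes letters within the window and does not show a binding site, and the windows of Traf1 and Birc3 and the first window of Tnfrsf9 held none.

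Lean adipose against LN Tregs asked how Tregs of fat differ from those of lymphoid tissue. LN and lean adipose also differ in the split of Xist, Ddx3y and Gapdh, which cannot be told apart from tissue here. In lean adipose Tnfrsf9, Traf1 and Birc3 were at least 2-fold higher on log2(value + 1), which is 3 of the 10 genes beside 37.6% of all measured genes, and Traf2 was at least 2-fold lower, 1 of 10 beside 32.1%. Over all measured genes these shares were no larger than the background. Among genes whose higher value was 100 or more, 6 of the 10 were included, of which 3 were higher, beside 26.5%, and 0 lower, beside 31.7%. The median log2 ratio of the 10 genes was 0.43 and that of all measured genes 0.14. Birc3 was 5.78-fold higher (5.43 to 6.15), at 756 against 131 scaled counts. Traf1 was 5.38-fold higher (5.04 to 5.74) and Tnfrsf9 3.24-fold higher (3.08 to 3.41). Traf2 was 2.50-fold lower (1.97 to 3.19), at 10.9 against 27.3 scaled counts. Cd27 was 1.91-fold lower (1.78 to 2.05), and centring on the median of all genes took it past 2-fold, at a log2 ratio of -1.07. The folds of Tnfrsf4, Tnfrsf18, Tnfrsf1b and Tnfrsf25 lay between 1.22 and 1.69 with intervals above 1, and the interval of Tnfrsf1a held 1 (0.858 to 1.59).

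Obese adipose and LN differ in tissue, in obesity and in the split of Xist, Ddx3y and Gapdh, which cannot be told apart here. Obese adipose had 5 of the 10 genes at least 2-fold higher than LN, beside 41.8% of all measured genes. None were at least 2-fold lower (0 of 10, beside 23.7%). Of the 7 members at 100 or more, 4 were higher, beside 23.7% of all genes at that level, and 0 lower, beside 31.3%. Tnfrsf9, Traf1 and Birc3 were again above LN, with Birc3 4.23-fold higher (3.97 to 4.52), Traf1 3.18-fold higher (2.97 to 3.41) and Tnfrsf9 3.09-fold higher (2.94 to 3.26). The receptors of TNF joined them. Tnfrsf1b was 3.25-fold higher (2.98 to 3.55), at 242 against 74.5 scaled counts, and Tnfrsf1a was 2.83-fold higher (2.18 to 3.70), at 25.4 against 8.97. Tnfrsf25 was 1.83-fold lower (1.57 to 2.13) and Traf2 1.38-fold lower (1.13 to 1.69). Tnfrsf18 was 1.31-fold higher and Cd27 1.12-fold lower, but centring put Tnfrsf18 at a log2 ratio of -0.05 and rescaling to a sum of 1000000 put Cd27 at 0.01. The median of all genes lay at 0.44 in this comparison, against 1.11 for the 10 genes. Centring on it left Tnfrsf1a at 0.96, under 2-fold, and took Tnfrsf25 to -1.29. It also moved the genes called over the whole table from 6144 higher and 3484 lower to 4612 higher and 4615 lower.

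The 10-month Foxp3Cre adipose library, which is on the LN side of the split in Xist, Ddx3y and Gapdh, was compared with LN in CPM. It had 5 of the 10 genes at least 2-fold higher, beside 34.3% of all measured genes, and 0 lower, beside 29.8%. All 5 were among the 8 members at 100 or more, where 25.5% of all genes were higher and 27.6% lower. Traf1 was 6.47-fold higher (6.07 to 6.90), Tnfrsf9 3.48-fold higher (3.31 to 3.66) and Birc3 3.46-fold higher (3.25 to 3.69). Tnfrsf4 was 2.40-fold higher (2.36 to 2.44) and Tnfrsf18 2.12-fold higher (2.03 to 2.22), and centring put Tnfrsf18 at 0.99 on the log2 scale. Tnfrsf25 was 1.98-fold higher (1.79 to 2.20), Tnfrsf1a 1.94-fold higher (1.47 to 2.56) and Tnfrsf1b 1.78-fold higher (1.62 to 1.96). Cd27 and Traf2, which were below LN in both 4-month adipose libraries on the deposited scale, were 1.34-fold and 1.19-fold higher here. The 3 comparisons share the LN library, so its own error enters all of them. This library differs from LN in age as well as in tissue.

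**Figure D2:**
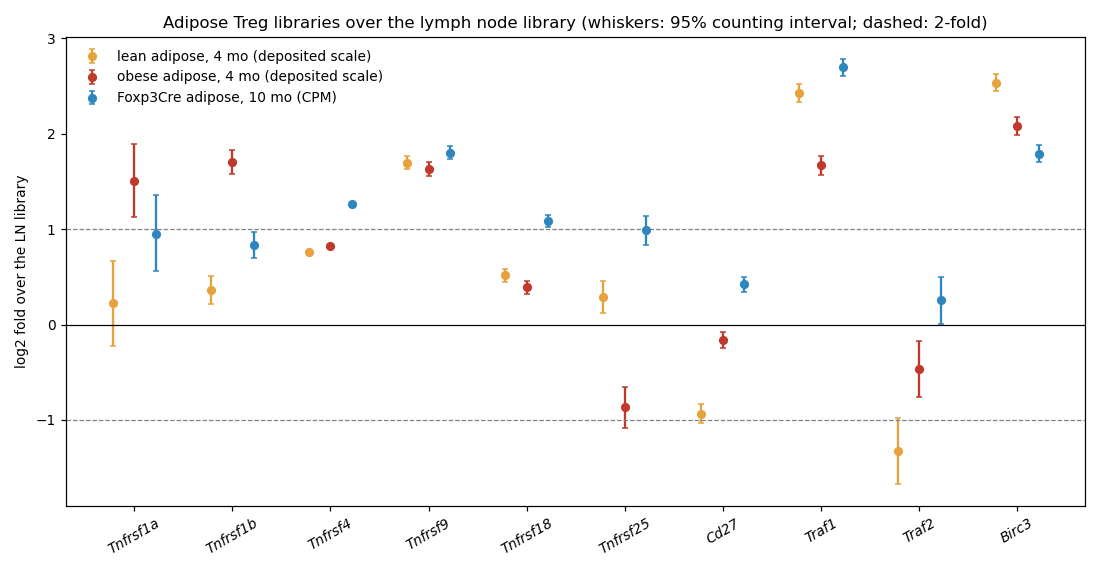
log2 fold of each gene over the LN library (vertical axis) in lean adipose, obese adipose and 10-month Foxp3Cre adipose Tregs, with 95% counting intervals as whiskers and dashed lines at 2-fold. Tnfrsf9, Traf1 and Birc3 lie above the upper dashed line in all 3, while Tnfrsf25, Cd27 and Traf2 have points on both sides of 0.

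Obese against lean adipose Tregs, both on the same side of the split in Xist, Ddx3y and Gapdh, asked how the fat of obese mice differs at the same age. On CPM, 2 of the 10 genes were at least 2-fold higher in the obese library, beside 34.0% of all measured genes, and 1 was lower, beside 18.6%. Of the 7 members at 100 or more, 1 was higher, beside 9.20% of all genes at that level, and 0 lower, beside 7.19%. Tnfrsf1b was 2.59-fold higher (2.39 to 2.81) and Tnfrsf1a 2.47-fold higher (1.93 to 3.20). Tnfrsf25 was 2.18-fold lower (1.88 to 2.53). Traf2 was 1.85-fold higher (1.43 to 2.40) and Cd27 1.74-fold higher (1.62 to 1.87), while Traf1 was 1.66-fold lower (1.59 to 1.73) and Birc3 1.34-fold lower (1.29 to 1.39). The interval of Tnfrsf9 held 1 (0.940 to 1.01). Tnfrsf4 was 1.06-fold higher, but centring reversed it to a log2 ratio of -0.11, and Tnfrsf18 was 1.07-fold lower. The median log2 ratio was 0.03 for the 10 genes and 0.20 for all measured genes.

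The 10-month and 4-month lean Foxp3Cre adipose libraries differ in age and in the split of Xist, Ddx3y and Gapdh, which cannot be told apart here. At 10 months 2 of the 10 genes were at least 2-fold higher, beside 28.5% of all measured genes, and 0 lower, beside 32.7%. Of the 8 members at 100 or more, 1 was higher, beside 13.4% of all genes at that level, and 0 lower, beside 16.4%. Traf2 was 2.70-fold higher (2.14 to 3.43) and Cd27 2.31-fold higher (2.17 to 2.47). Birc3 was 1.84-fold lower (1.77 to 1.91). Tnfrsf25 was 1.47-fold higher, and Tnfrsf18, Tnfrsf4, Tnfrsf1b and Traf1 were 1.09-fold to 1.35-fold higher. Tnfrsf1a was higher too, with an interval of 1.16 to 1.96. The interval of Tnfrsf9 held 1 (0.942 to 1.01), and its log2 ratio ran from -0.04 to 0.18 over the scalings tried.

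The library labelled Med23 KO against 10-month Foxp3Cre asked about the loss of Med23, a Mediator subunit, in Tregs, within the limit that Med23 itself went against the label. It had 5 of the 10 genes at least 2-fold lower, beside 34.9% of all measured genes, and 2 at least 2-fold higher, beside 28.6%. Of the 8 members at 100 or more, 4 were lower, beside 23.5% of all genes at that level, and 1 higher, beside 14.4%. Tnfrsf25 was 8.05-fold lower (6.39 to 10.3), at 15.3 against 123 scaled counts, the lower value resting on 78 reads. Tnfrsf4 was 3.96-fold lower (3.86 to 4.07), at 1168 against 4626. Tnfrsf1a was listed at 0 against 18.2 scaled counts. The authors' deposited table gives it a log2 fold change of -5.18, which equals the ratio with 0.5 scaled counts in place of the listed 0, and values under 1 are listed as 0. Birc3 was 2.22-fold lower (2.08 to 2.38) and Tnfrsf18 2.10-fold lower (1.99 to 2.21). Rescaling to a sum of 1000000 multiplies each fold here by 1.23, and on it Birc3 and Tnfrsf18 stood at log2 ratios of -0.85 and -0.76, under 2-fold, which left 3 genes lower. Tnfrsf1b was 2.78-fold higher (2.59 to 2.99), at 385 against 139 scaled counts, and Traf2 was 2.19-fold higher (1.88 to 2.56). Traf1 was 1.87-fold lower (1.78 to 1.96), Cd27 1.60-fold lower and Tnfrsf9 1.30-fold lower (1.25 to 1.36). The log2 ratio of Tnfrsf9 ran from -0.38 to -0.08 over the scalings tried, and in CPM its intervals in the 2 libraries overlapped. The median log2 ratio was -0.98 for the 10 genes and -0.15 for all measured genes. The macrophage and dendritic cell markers summed to 108 CPM in the library labelled Med23 KO against 658 in Foxp3Cre. Of the 13 Treg and T cell markers, 3 were at least 2-fold lower and 1 higher, beside 34.9% and 28.6% of all measured genes. Among them Il2ra had 342 against 1413 CPM, Trac 185 against 808 CPM and Ikzf4 205 against 55.5 CPM. The part of either marker set in the lower values was not tested.

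**Figure D3:**
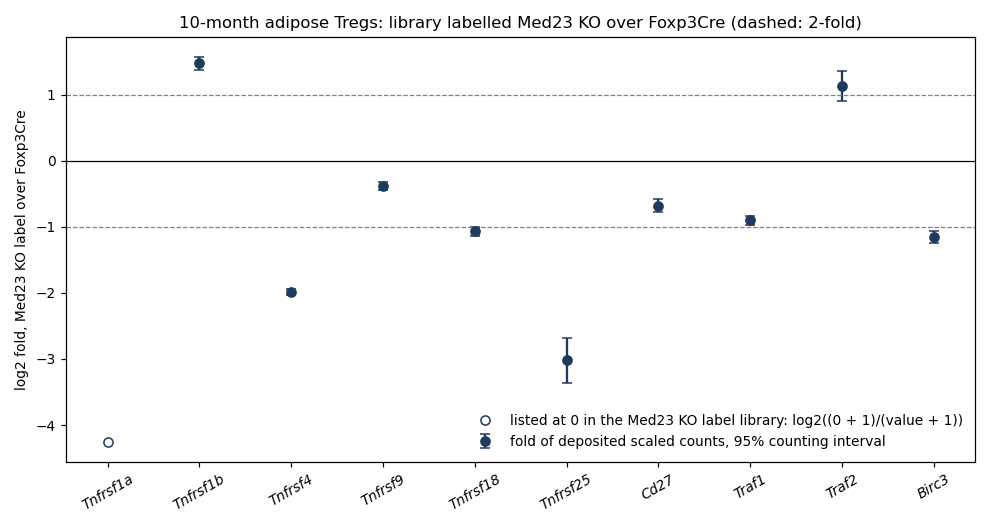
log2 fold of each gene in the library labelled Med23 KO over the 10-month Foxp3Cre library (vertical axis), from scaled counts, with 95% counting intervals as whiskers, dashed lines at 2-fold and an open point for Tnfrsf1a, listed at 0. Tnfrsf1b and Traf2 lie above 0 and the other 8 genes below.

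In the authors' deposited tables, a mark stands where the size of the log2 fold change exceeds 1 with a q-value under 0.005, which compares libraries and not conditions. The authors' deposited table for lean adipose marks Tnfrsf9, Traf1 and Birc3, among 6510 marked of 12235 genes compared. The authors' deposited table for obese adipose marks Tnfrsf1a, Tnfrsf1b, Tnfrsf9, Traf1 and Birc3, among 5293 of 12649. The authors' deposited table for the 10-month libraries marks Tnfrsf1a, Tnfrsf1b, Tnfrsf4, Tnfrsf18, Tnfrsf25, Traf2 and Birc3, among 5113 of 12529. Traf2 is not marked for lean adipose, although the authors' deposited table gives it a log2 fold change of -1.32.

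Several ligands of these receptors were listed at 0 in some of the libraries. Of 18 ligand genes, 9 were measured in lean adipose against LN, with 1 at least 2-fold higher and 4 lower, beside 37.6% and 32.1% of all measured genes. In obese adipose against LN 13 were measured, with 6 higher and 4 lower, beside 41.8% and 23.7%. Lta, the gene of lymphotoxin alpha, a ligand of both TNF receptors, had 272 CPM in LN, 0 in lean and obese adipose, 2.18 in 10-month Foxp3Cre adipose and 45.5 in the library labelled Med23 KO. Ltb, which encodes its membrane partner lymphotoxin beta, was 7.98-fold lower in lean adipose than in LN and 6.94-fold lower in obese adipose (6.52 to 7.40). Tnf had 17.5 CPM in LN, then 22.1 in lean, 80.2 in obese and 6.32 in 10-month Foxp3Cre adipose, with 15.5 in the library labelled Med23 KO. It was 4.06-fold higher in obese adipose than in LN (3.42 to 4.84) on the deposited scale, so that Tnf, Tnfrsf1a and Tnfrsf1b were all above LN in the obese library, which also has the highest sum of macrophage and dendritic cell markers. Those cells also express Tnf, and their part was not tested.

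The ligands of 4-1BB, OX40, CD27, DR3 and GITR were each listed at 0 in at least 2 libraries. Tnfsf8, the ligand of CD30, and Cd40lg, the ligand of CD40, were above 0 in all 5, at 454 to 981 CPM and 111 to 171 CPM. Against LN, Tnfsf8 was 1.96-fold higher in the lean adipose library (1.89 to 2.03). Tnfsf9, the ligand of 4-1BB, had 61.8 CPM in lean adipose, 72.2 in obese adipose and 17.5 in 10-month Foxp3Cre adipose and was listed at 0 in LN and in the library labelled Med23 KO. Tnfsf4, the ligand of OX40, had 20.5 CPM in 10-month Foxp3Cre adipose and 1.33 in obese adipose and was listed at 0 elsewhere. Cd70, the ligand of CD27, was above 0 in obese adipose alone, at 7.54 scaled counts. Tnfsf15, the ligand of DR3, was above 0 in obese adipose alone, at 1.20 CPM. Tnfsf18, the ligand of GITR, was listed at 0 in all 5 libraries. In the library labelled Med23 KO against Foxp3Cre, 6 of 12 measured ligand genes were at least 2-fold lower, beside 34.9% of all genes, and 1 was higher, beside 28.6%. That gene was Lta, at 40.9 against 2.42 scaled counts. Obese against lean adipose had 6 of 12 ligand genes higher and 0 lower, beside 34.0% and 18.6%. Comparing 10-month with 4-month lean adipose gave 6 of 12 higher and 2 lower, beside 28.5% and 32.7%. The comparison of 10-month Foxp3Cre adipose with LN had 4 of 12 higher and 3 lower, beside 34.3% and 29.8%.

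The other receptors of the family were mostly scarce, and 6 of 21 had a value above 0 in all 5 libraries. Against LN, lean adipose had 6 of 13 measured receptors at least 2-fold higher and 3 lower, beside 37.6% and 32.1% of all measured genes. Obese adipose had 5 of 13 and 2, beside 41.8% and 23.7%, and 10-month Foxp3Cre adipose 6 of 13 and 3, beside 34.3% and 29.8%. Tnfrsf8, the gene of CD30, had 46.3 scaled counts in lean adipose and 6.66 in obese adipose and was listed at 0 in LN. Between the adipose libraries it was 6.89-fold lower in the obese one on CPM (5.17 to 9.35). Fas, the death receptor gene, was 2.54-fold lower in obese adipose than in LN (2.35 to 2.75). In the library labelled Med23 KO, 4 of 11 receptors were lower and 2 higher, beside 34.9% and 28.6%. Tnfrsf13b, which encodes TACI, a receptor known from B cells, was 8.37-fold lower there (6.31 to 11.3), and Tnfrsf26 was 9.30-fold higher (7.01 to 12.5). Obese against lean adipose had 5 of 14 higher and 5 lower, beside 34.0% and 18.6%, and 10-month against 4-month lean adipose had 4 of 13 higher and 3 lower, beside 28.5% and 32.7%.

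Adaptors and signalling genes downstream of the receptors went both ways. Of 29, lean adipose against LN had 28 measured, 12 at least 2-fold higher and 5 lower, beside 37.6% and 32.1% of all measured genes. Obese adipose had 29 measured, 12 higher and 2 lower, beside 41.8% and 23.7%. The 10-month Foxp3Cre adipose library had 28 measured, 7 higher and 3 lower, beside 34.3% and 29.8%. Birc2, the gene of cIAP1 and the neighbour of Birc3, was higher than in LN, 2.38-fold in lean adipose (2.26 to 2.52) and 2.01-fold in obese adipose (1.90 to 2.12). Its folds were smaller than those of Birc3 in the same comparisons, 5.78 and 4.23. Map3k7, which encodes the kinase TAK1, was 7.74-fold higher in lean adipose (6.22 to 9.73) and 7.33-fold higher in obese adipose (5.88 to 9.24). Traf5, the gene of an adaptor related to TRAF2, had 51.8 scaled counts in LN and was listed at 0 in lean adipose, and it was listed at 0 in obese adipose against 52.3 in LN. It had 23.3 CPM in 10-month Foxp3Cre adipose and 12.6 CPM in the library labelled Med23 KO. Its zeros thus followed the split in Xist, Ddx3y and Gapdh, whose part was not tested.

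In the library labelled Med23 KO against Foxp3Cre, 6 of 28 adaptor and signalling genes were at least 2-fold lower and 3 higher, beside 34.9% and 28.6% of all measured genes. The highest ratios were those of Map3k7, 3.34-fold higher (2.97 to 3.76), and Tradd, the gene of the TNFR1 adaptor, 2.94-fold higher at 14.9 against 5.06 scaled counts. Ikbkg, the gene of the IKK regulatory subunit NEMO, was 17.0-fold lower (9.61 to 33.2), at 2.35 against 39.9 scaled counts. Traf5 was 2.28-fold lower (1.70 to 3.10), while Traf3, the gene of an adaptor that restrains the alternative NF-kB pathway, was 2.38-fold higher (2.08 to 2.73). Ripk1, the kinase gene downstream of TNFR1, was 1.28-fold higher, and Birc2 was 1.44-fold higher (1.37 to 1.51) where Birc3 was lower. Obese against lean adipose had 5 of 28 adaptor and signalling genes higher and 1 lower, beside 34.0% and 18.6%. The 10-month against 4-month lean comparison had 5 of 28 higher and 3 lower, beside 28.5% and 32.7%.

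Most genes of NF-kB subunits, inhibitors and targets were higher in adipose than in LN. Of 21, 16 were at least 2-fold higher and 1 lower in lean adipose, beside 37.6% and 32.1% of all measured genes, with a median log2 ratio of 2.46 against 0.14. In obese adipose 14 were higher and 0 lower, beside 41.8% and 23.7%, with a median of 1.90 against 0.44. In 10-month Foxp3Cre adipose 17 were higher and 0 lower, beside 34.3% and 29.8%, with a median of 2.06 against 0.10. The macrophage and dendritic cell markers were also above LN in all 3 libraries, at the sums given above. Fibroblast and mesothelial markers summed to 1038 CPM in lean adipose against 8.56 CPM in LN. The part of these markers in the counts was not tested. Ier3, an early response gene, was 103-fold higher in lean adipose (66.1 to 172), at 213 against 2.06 scaled counts, and Icam1, an adhesion molecule gene, had 165 scaled counts against 0 in LN. Sod2, the mitochondrial superoxide dismutase gene, was the lower gene, 2.48-fold lower in lean adipose (2.25 to 2.74). Nfkb1, the gene of the p105 precursor of the p50 subunit, had 117 CPM in LN, then 1682 in lean, 1083 in obese and 1287 in 10-month Foxp3Cre adipose, with 1544 in the library labelled Med23 KO.

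The library labelled Med23 KO had 10 of the 21 at least 2-fold lower than Foxp3Cre and 1 higher, beside 34.9% and 28.6% of all measured genes, with a median log2 ratio of -0.97 against -0.15 for all genes. Rela, the gene of the p65 subunit, was the higher one at 2.66-fold (2.39 to 2.97). Ier3 was listed at 0 against 235 scaled counts, and Bcl2l1, which encodes the survival protein BCL-XL, was 5.38-fold lower (4.28 to 6.85). Obese against lean adipose had 1 of 21 higher and 5 lower, beside 34.0% and 18.6%. Among the latter were Ier3, 2.68-fold lower (2.45 to 2.94), and Bcl2l1, 3.75-fold lower (3.24 to 4.35). Fibroblast and mesothelial markers summed to 1038 CPM in lean and 15.9 CPM in obese adipose, and macrophage and dendritic cell markers to 899 and 4994 CPM. The part of both marker sets in these values was not tested. Comparison of 10-month with 4-month lean adipose gave 0 higher and 3 lower, beside 28.5% and 32.7%.

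**Figure D4:**
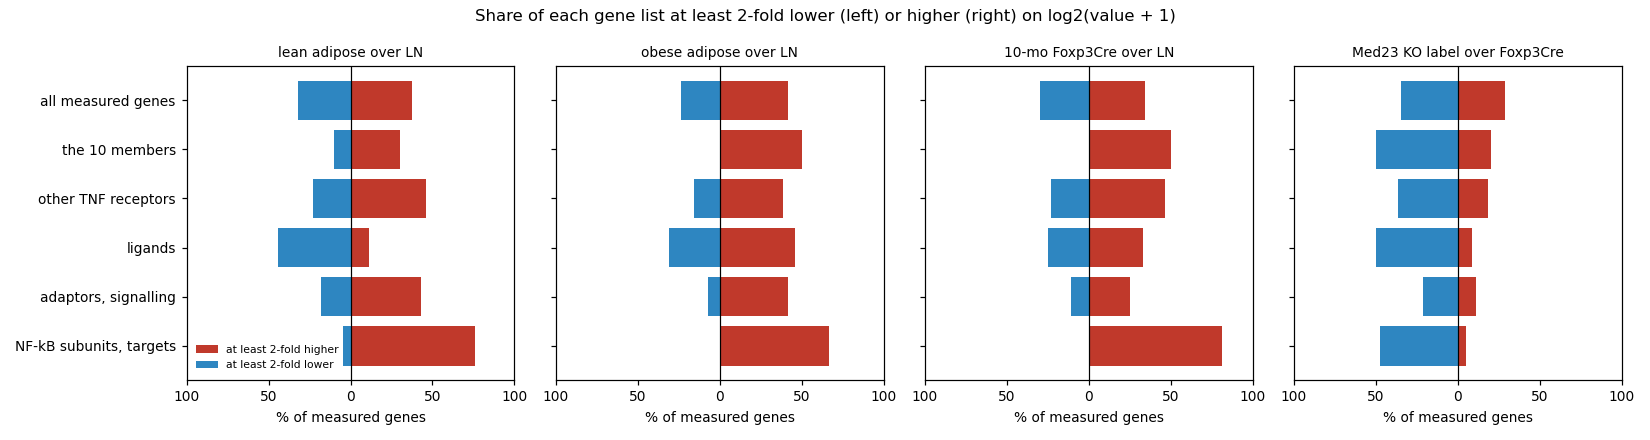
Percent of the measured genes of each list (horizontal axis) that were at least 2-fold lower, drawn to the left of 0, or higher, drawn to the right, on log2(value + 1) in 4 comparisons. The NF-kB list had 16, 14 and 17 of 21 genes higher against LN, and 10 of 21 lower in the library labelled Med23 KO.

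Profiles over the 5 libraries were compared by the Euclidean distance of centred log2(CPM + 1), among 9174 genes at 20 CPM or more in at least 1 library. The nearest to Tnfrsf4 were Zfp36 at a distance of 0.22, Nudt14 and Pdcd1lg2. Zfp36 had 219 CPM in LN, then 431 in lean, 537 in obese and 561 in 10-month Foxp3Cre adipose, with 175 in the library labelled Med23 KO. The nearest to Tnfrsf9 were Iqgap1 at 0.20, Sec23b and Ppp1r15b. For Tnfrsf18 they were H2-D1 at 0.14, Pigf and Lpxn, and for Tnfrsf1b Ubn2 at 0.23, Trpc4ap and Bach2it1. Among the 10 genes themselves the closest pairs were Tnfrsf9 and Traf1 at 0.80 and Tnfrsf4 and Tnfrsf18 at 0.91, and the farthest was Tnfrsf1a and Traf2 at 5.44. With 5 libraries of unequal depth and 1 library per group, these distances are a description.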

How the data were processed

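Each of the 3 deposited tables pairs 2 libraries and holds a scaled read count per gene and library (a signal, not raw counts), a log2 fold change, a p-value and a q-value from the authors, per the file headers. LN is in both 4-month tables. RNA was extracted with Trizol and 3 ug of total RNA went into TruSeq libraries for a HiSeq2000 instrument, per the labels' protocols. Bowtie2 2.0.6, TopHat2 2.0.9 and mm8 are named in the submitters' processing notes. Read counter, gene models, strandedness and scaling method were not given in the sources used here. All deposited values (100%) were whole multiples of a step that is fixed in each library, to 0.01 read, and that step was taken as 1 read. Values under 1 are listed as 0, and the smallest others equal 6 to 10 reads.

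Symbols came from GENCODE M21, and 49326 of 49927 IDs had one. Ratios within a table used the deposited signal. Ratios across tables, and levels, used CPM. CPM ratios were 1.10 (lean over LN), 1.13 (obese over LN) and 1.23 (library labelled Med23 KO over Foxp3Cre) times the deposited ones. Counts of genes used log2 ratios with a pseudocount of 1, a 2-fold size threshold and genes whose higher value was 1 or more. Shares among genes at 100 or more are also given. This scale understates the change of low genes. Single folds are ratios of listed values, with exact Clopper-Pearson 95% intervals conditional on the summed reads, and levels have exact Poisson intervals. Without molecular identifiers, reads are not independent molecules, so both cover counting error only. No test, p-value or replicate check exists with 1 library per group.

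The 10 genes and the 11 lists beside them (167 genes with the members) were chosen with earlier results of these data known. The rule for naming allowed the 10 genes, the 2 highest and 2 lowest ratios of each list of other receptors, ligands, adaptors and NF-kB genes per comparison among genes at 5 or more, and partners (Tnf, Lta, Tnfsf4, Tnfsf9, Tnfsf18, Cd70, Birc2, Traf3, Traf5, Tradd and Ripk1). Not every gene it allowed is described, and the choice among them was made after their values were seen. Tnfsf15, Cd40lg and Nfkb1 were added after their values were seen, and Ltb, Fas and Ier3 are described only where that rule named them. Calculations ran in Python 3.11.15 with scipy 1.17.1, numpy 2.4.6, matplotlib 3.10.9 and pandas 2.3.3. On simulated data, 200 of 200 genes changed 4-fold were recovered in each within-table comparison, with 0 unchanged genes called, among 5838 (lean), 5875 (obese) and 6041 (10-month) genes at 20 or more. The intervals held the true fold for 95.5%, 95.2% and 95.6% of those genes. The simulated libraries varied by Poisson counting alone, without spread between animals, libraries or scalings. These figures therefore check the calculation only and say nothing of how reliable the real ratios are. Alternatives were pseudocounts of 0.1 and 5, a minimum of 10 or none, the other scaling, and centring on the median of all genes. A second, narrower NF-kB motif was also searched in the member promoters and is left out here, a choice made after its matches were seen.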

Additional observations from a re-analysis of the deposited data

Results flagged for a closer look

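Tnfrsf25, Cd27 and Traf2 lay above LN in some adipose libraries and below it in others, each with a counting interval clear of 1 on the scale used, and that difference between libraries was not tested. Tnfrsf25 was 1.22 times its LN level in lean adipose and 1.98 times in 10-month Foxp3Cre adipose but 0.548 times in obese adipose. Cd27 was 1.34 times its LN level in 10-month Foxp3Cre adipose but 0.524 times in lean and 0.894 times in obese adipose, the last of which reached 1 on CPM. Traf2 was 1.19 times its LN level in 10-month Foxp3Cre adipose but 0.400 times in lean and 0.725 times in obese adipose. The 10-month values are on CPM and the 4-month values on the deposited scale.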

How the results depend on the processing

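The number of members at least 2-fold higher did not move by over 1.5 times under any pseudocount, minimum, scaling or centring tried, in any of the 6 comparisons. With ratios centred on the median of all genes, 2 members were lower in lean adipose against LN in place of 1, and 1 was lower in obese adipose against LN in place of 0. In the library labelled Med23 KO against Foxp3Cre, 3 were lower in place of 5, both after rescaling to a sum of 1000000 and after centring. Of 240 values of single members under alternatives, 156 moved by less than the counting error, 84 moved further and 0 called values changed sign. Of 60 member and comparison pairs, 4 uncalled ones changed sign (Tnfrsf18 and Cd27 in obese adipose against LN, Tnfrsf4 in obese against lean adipose, Tnfrsf9 in 10-month against lean adipose) and 7 crossed the 2-fold threshold (Cd27 in lean adipose against LN, Tnfrsf1a and Tnfrsf25 in obese adipose against LN, Tnfrsf18 and Birc3 in the library labelled Med23 KO, Tnfrsf18 and Tnfrsf25 in 10-month adipose against LN). No replicate could be left out, as each group had 1 library. No paired analysis was possible because each group had 1 library. Of values above 0, Tnfrsf25 in the library labelled Med23 KO rested on 78 reads, Tnfrsf1a on 82 to 202 and Traf2 on 98 to 385.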
